A study of Mus musculus with 16 samples.

Results

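Hippocampal H3K4me3 was compared between the control mice of 2 Kdm5c mutant lines. The first control group, written ifWT, comes from the line that the labels call ifKO and has a pure C57BL/6J background. The second control group, written WT, comes from the line that the labels call KO and has a mixed F1 background of C57 and 129. Members were chosen by library title. They are 4 libraries, 2 of ifWT and 2 of WT, of the 12 H3K4me3 libraries and of 16 libraries in all. All of these mice were males of 2 to 4 months, their genotype labels read control (ifWT) and wild-type (WT), none was exposed to novelty, and each library was made from hippocampi pooled from 2 mice. The controls were littermates of the mutants of their own line, the antibody was anti-H3K4me3 from Millipore, and the title of ifWT replicate 1 reads H3K3me3 whereas its antibody label reads H3K4me3. Other groups were used too: ifKO is labelled mutant for Kdm5c on the C57BL/6J background, KO is mutant for Kdm5c on the mixed background, and WT novelty is wild-type on the mixed background after 1 h of exploring new surroundings. Sex, age and antibody labels were the same for all of these. The making of the ifKO line is not stated in the labels. Strain background, cohort and preparation changed together between the groups, so these cannot be told apart. In bulk tissue, fewer cells of a type and less of the mark per cell cannot be told apart either.

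H3K4me3 is the trimethylated form of lysine 4 of histone H3, and it gathers at the start sites of active and poised genes. Kdm5c is an X-linked enzyme that removes methyl groups from H3K4. C57BL/6 and 129 are inbred mouse strains whose genomes differ at many sites. The values here are read counts over a shared set of regions, scaled to a common library size as CPM. A region was called when its adjusted p was under 0.05 in edgeR's quasi-likelihood test with Benjamini-Hochberg adjustment over all regions tested.

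Control mice of both cohorts differed at 5204 of 35955 tested regions, or 14.5%. Of these, 2616 (7.28%) were higher in ifWT and 2588 (7.2%) were lower in ifWT, with a median absolute log2 change of 0.38. Most changes were small. At least 2-fold changes numbered 455 higher and 298 lower, at least 4-fold changes 93 higher and 77 lower, and at least 8-fold changes 23 higher and 35 lower. Of the at least 4-fold changes, 76 higher and 46 lower lay in weak regions, with a mean log2 CPM below 1. In regions with a mean log2 CPM above 6 there were 0 in either direction. The balance of higher and lower calls depended on scaling, since library totals in place of TMM factors gave 1957 higher and 4141 lower. Fewer regions were called without WT replicate 1 (2606), without WT replicate 2 (2669) and without ifWT replicate 1 (2933). For scale, WT libraries differed from the WT libraries taken after 1 h of novelty, in the same cohort, at 2 regions (0.00556%) in the same test, with 1679 at an unadjusted p under 0.05. Against those novelty libraries, ifWT differed at 4122 regions (11.5%); that comparison shares the ifWT libraries with the main one. The 4 libraries had total counts over the regions of 21303898 and 22996995 in ifWT and 22055154 and 22566171 in WT. Replicate pools disagreed beyond counting noise, with a chi-square per degree of freedom of 4.44 in ifWT and 2.23 in WT (7.60 in ifKO and 2.78 in KO), and p-values measure the spread between such pools.

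The same pair of backgrounds was measured again in 4 other libraries, ifKO against KO, which also carry Kdm5c mutations and thus hold both knockout effects. There, 7394 regions (20.6%) were called, with 10.6% higher and 11.8% lower among the regions that represent genes (22.4% in all). Of the regions called in ifWT against WT, 5008 (96.2%) had the same sign in ifKO against KO, 3338 were called in the same direction in both, and 12 were called in opposite directions. The shared calls were 64.1% of those in ifWT against WT and 45.1% of those in ifKO against KO. Of 170 regions called with at least a 4-fold change, 140 were called the same way in ifKO against KO. Across the 35955 regions, which share no library between the comparisons but share regions, genes and library depth, the log2 changes had Pearson's r of 0.57 and Spearman's rho of 0.51. The difference between both cohort effects was called at 252 regions (0.701%). It was positive (ifWT minus WT above ifKO minus KO) at 234 of them and negative at 18.

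**Figure D1:**
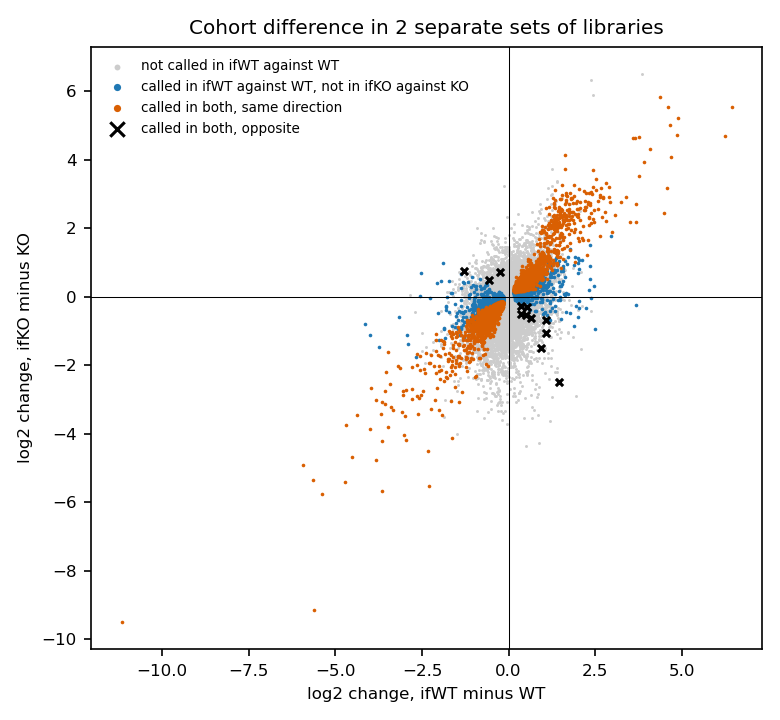
The log2 change of ifWT minus WT (horizontal axis) is plotted against that of ifKO minus KO (vertical axis) for 35955 regions, 1 point each. Regions called in both comparisons in the same direction (3338 of them) lie in the upper right and lower left, and the 12 called in opposite directions are crosses.

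The sequences below show what lay under some of these regions, as RefSeq promoter windows of the GRCm38.p6 build that hold 250 bases before a start site and 50 after it. Windows with at least 150 bases inside the region were considered. Those shown are the promoters of Gm40237 and Gm35082, which lie inside regions among the largest changes, and then, among other named genes with a single promoter in their region, the 2 GC-richest that were called higher and the 2 GC-poorest that were called lower. CG dinucleotides, the sites of most vertebrate DNA methylation, are in capitals. CG reads the same on both strands; 94.6% of the 32851 promoters in the table hold at least 1, with a median of 7. The Gm40237 window (chr4:118547156-118547455, plus strand), 1 of 2 listed in its region, holds 10 CG. This window consists of a short stretch repeated in tandem, with small differences between the copies. How reads mapped to it was not tested. The Gm35082 window (chr7:100674757-100675056, plus strand) holds 1 CG and is the first of 3 listed in its region for this predicted gene. The Setd1a window (chr7:127777139-127777438, plus strand) holds 35 and the Dlx2 window (chr2:71546705-71547004, minus strand) holds 29. The Syt1 window (chr10:109009062-109009361, minus strand) holds 6, and the Gbp2 window (chr3:142620413-142620712, plus strand) holds 2. At least 29 CG occur in 12.9% of all promoters and at least 35 in 6.95%.
Gm40237: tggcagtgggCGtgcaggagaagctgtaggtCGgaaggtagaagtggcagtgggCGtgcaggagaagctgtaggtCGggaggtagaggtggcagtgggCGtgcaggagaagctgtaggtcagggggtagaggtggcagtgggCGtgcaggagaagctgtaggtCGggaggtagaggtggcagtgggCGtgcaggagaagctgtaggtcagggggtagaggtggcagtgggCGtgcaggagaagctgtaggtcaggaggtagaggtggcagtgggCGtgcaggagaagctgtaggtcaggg
Gm35082: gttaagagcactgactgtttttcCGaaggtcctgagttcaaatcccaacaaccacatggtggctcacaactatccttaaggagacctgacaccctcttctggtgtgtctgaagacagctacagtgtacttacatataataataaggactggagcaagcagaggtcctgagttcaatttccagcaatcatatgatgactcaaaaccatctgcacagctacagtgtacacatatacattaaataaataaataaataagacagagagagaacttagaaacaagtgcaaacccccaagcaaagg
Setd1a: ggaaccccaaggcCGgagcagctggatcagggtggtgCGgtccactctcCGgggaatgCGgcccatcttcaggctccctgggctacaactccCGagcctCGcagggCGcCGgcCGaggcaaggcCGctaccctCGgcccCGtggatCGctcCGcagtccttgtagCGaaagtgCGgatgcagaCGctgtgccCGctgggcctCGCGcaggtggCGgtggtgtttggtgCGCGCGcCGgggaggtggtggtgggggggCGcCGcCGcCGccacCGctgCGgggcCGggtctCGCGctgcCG
Dlx2: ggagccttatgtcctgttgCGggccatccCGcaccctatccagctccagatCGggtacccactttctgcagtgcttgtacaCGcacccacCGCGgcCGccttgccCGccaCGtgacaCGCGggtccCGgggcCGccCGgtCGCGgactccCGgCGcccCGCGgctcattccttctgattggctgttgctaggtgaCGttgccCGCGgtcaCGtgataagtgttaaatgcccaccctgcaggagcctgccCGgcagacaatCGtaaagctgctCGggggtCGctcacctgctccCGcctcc
Syt1: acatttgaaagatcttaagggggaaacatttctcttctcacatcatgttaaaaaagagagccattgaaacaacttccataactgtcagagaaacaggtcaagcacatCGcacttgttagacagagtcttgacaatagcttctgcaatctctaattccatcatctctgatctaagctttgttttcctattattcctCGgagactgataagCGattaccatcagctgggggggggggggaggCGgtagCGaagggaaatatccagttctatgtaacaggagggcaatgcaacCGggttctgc
Gbp2: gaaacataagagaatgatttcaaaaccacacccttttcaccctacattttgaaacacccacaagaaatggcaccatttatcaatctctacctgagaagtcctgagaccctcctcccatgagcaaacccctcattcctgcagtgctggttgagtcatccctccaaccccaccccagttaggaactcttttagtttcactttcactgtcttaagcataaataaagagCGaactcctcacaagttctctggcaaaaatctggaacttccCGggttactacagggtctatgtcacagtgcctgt

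The largest rise lay 10.1 kb from Ptprt, a receptor tyrosine phosphatase gene (chr2:161510950-161511886), with 18 and 17.8 CPM in ifWT libraries, against 0.0898 and 0.313 CPM in WT libraries. Its level in ifWT was 88.7 times that in WT (95% exact interval 46.5 to 195, counting error only), with 16.5 and 16.5 CPM in ifKO libraries, against 0.164 and 0.514 CPM in KO libraries. The region was thus high in both C57BL/6J groups and near 0 in both mixed-background groups. A region inside Sntg1, which encodes gamma-1-syntrophin, had 5.29 and 5.14 CPM in ifWT libraries, against 0.359 and 0.402 CPM in WT libraries (log2 change 3.76 ± 0.32, adjusted p = 5.61e-10). One inside Tmprss11d, a serine protease gene, had 8.52 and 6.65 CPM in ifWT libraries, against 0.764 and 0.402 CPM in WT libraries. The gene 2700054A10Rik had 74 and 94.4 CPM in ifWT libraries, against 15.2 and 17.2 CPM in WT libraries at its start (chr17:13550589-13553254; log2 change 2.38 ± 0.16, adjusted p = 2.23e-12). The ifKO libraries were unlike each other at 2700054A10Rik, with 124 and 71 CPM, against 11.7 and 11.6 CPM in KO libraries. The log2 changes of the 12 largest rises ran from 2.32 to 6.44. One of them, the region that holds the Gm40237 window printed above, had 36.3 and 42.5 CPM in ifWT libraries, against 6.6 and 7.02 CPM in WT libraries (log2 change 2.53 ± 0.19, adjusted p = 2.18e-11). At Gm40237 too the ifKO libraries were unlike each other, with 63.5 and 32.9 CPM, against 4.93 and 6.13 CPM in KO libraries.

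A region 5.52 kb from Elovl7, a gene for an enzyme that lengthens fatty acids, had 0.098 and 0.357 CPM in ifWT libraries, against 13.7 and 15.6 CPM in WT libraries (log2 change -5.94 ± 0.27, adjusted p = 7.98e-17). A promoter of Gm35082, printed above, lies in a region with 0.539 and 0.447 CPM in ifWT libraries, against 24.9 and 24.4 CPM in WT libraries (log2 change -5.64 ± 0.20, adjusted p = 1.16e-19). A region 3.38 kb from H2bc18, a histone H2B gene, had 0.294 and 0.625 CPM in ifWT libraries, against 18.3 and 21.4 CPM in WT libraries. All 3 were under 1 CPM in both ifKO libraries, whereas KO libraries had 20.2 and 17.3 CPM near Elovl7, 28.5 and 24.3 CPM at Gm35082 and 18.4 and 17.1 CPM near H2bc18. Inside Slc1a1, which encodes a neuronal glutamate transporter, a region had 0.245 and 0.625 CPM in ifWT libraries, against 6.15 and 5.09 CPM in WT libraries (log2 change -3.65 ± 0.33, adjusted p = 1.73e-09), and inside Serpina3n, an acute-phase protease inhibitor gene, a weak region had 0.049 and 0.223 CPM in ifWT libraries, against 2.38 and 1.74 CPM in WT libraries. The end of Wbp11 (chr6:136815410-136817530), a gene linked to pre-mRNA splicing, had 2.01 and 2.23 CPM in ifWT libraries, against 22.3 and 24.9 CPM in WT libraries (log2 change -3.47 ± 0.15, adjusted p = 1.47e-17). The corresponding values were 16.3 and 12 CPM in ifKO libraries, against 44.4 and 42 CPM in KO libraries, so that all 4 groups stood apart from each other there.

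**Figure D2:**
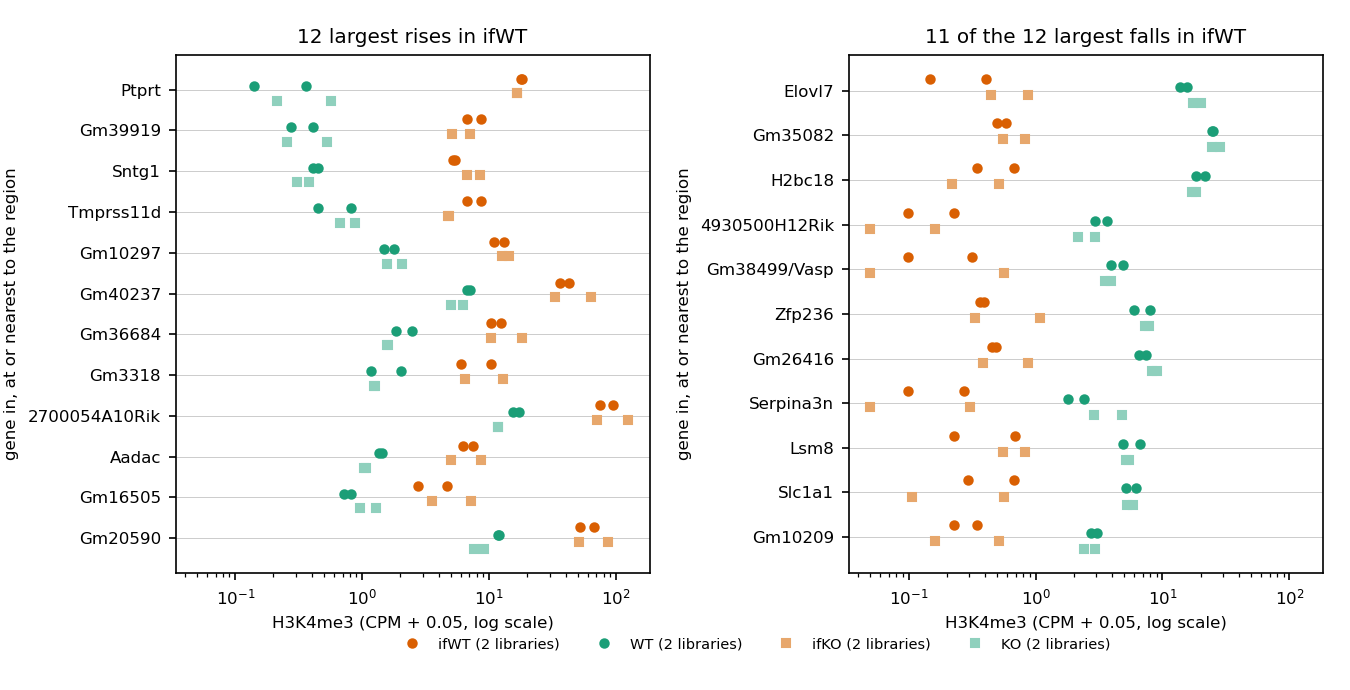
H3K4me3 (CPM plus 0.05, log scale) in each library at the 12 regions with the largest rise (left) and at 11 of the 12 with the largest fall (right) in ifWT against WT; each point is 1 library, circles are the control groups and squares the mutant groups. The regions were chosen among those with no overlap between ifWT and WT libraries, so that separation is not a finding; the ifKO and KO points lie on the same sides.

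Each gene was represented by its strongest region within 2 kb of either end, which gave 16698 regions; of these 18.0% were called, 1491 (8.93%) higher and 1517 (9.08%) lower. A region at a start site of Taf4, which encodes a subunit of the general transcription factor TFIID, was chosen after its values were seen. It had 52.7 and 40.3 CPM in ifWT libraries, against 12.1 and 12.6 CPM in WT libraries (log2 change 1.91 ± 0.18, adjusted p = 3.07e-09). The WT novelty libraries lay in between, with 25.5 and 28.5 CPM. Kdm5c itself had 58.1 and 61.5 CPM in ifWT libraries, against 66.6 and 72.2 CPM in WT libraries (log2 change -0.21 ± 0.07, adjusted p = 0.032), a call that was lost without ifWT replicate 1, without WT replicate 2, with novelty libraries in place of WT, in DESeq2 and with promoter-GC offsets. Its Y-linked relative Kdm5d was not called (log2 change -0.20 ± 0.09, adjusted p = 0.152), nor were Nnt, Fos and Npas4 (log2 changes 0.08 ± 0.07, -0.02 ± 0.07 and 0.09 ± 0.19; adjusted p of 0.467, 0.919 and 0.815). Xist and Disc1 had no region at a gene end.

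Markers of vascular cells were among the groups with more lower than higher calls in ifWT. Of 38 marker genes with a region, 14 fell and 0 rose, with a median log2 change of -0.27 against -0.01 over all genes. Thus 36.8% were called, beside 18.0% over all genes. Cldn5, a tight junction gene of endothelium, had 31.3 and 34.1 CPM in ifWT libraries, against 48 and 49.7 CPM in WT libraries (log2 change -0.58 ± 0.08, adjusted p = 4.43e-06). The endothelial adhesion genes Pecam1 and Cdh5 had log2 changes of -0.67 ± 0.11 (adjusted p = 8.81e-05) and -0.70 ± 0.10 (adjusted p = 9.97e-06). Ogn, a gene of an extracellular matrix proteoglycan, had 2.74 and 2.23 CPM in ifWT libraries, against 5.79 and 7.15 CPM in WT libraries (log2 change -1.38 ± 0.28, adjusted p = 0.000775). The summed level of the 38 regions was 666 and 711 CPM in ifWT, against 825 and 798 CPM in WT; in the other comparison it was 666 and 699 CPM in ifKO, against 717 and 764 CPM in KO, with 11 lower and 0 higher. The median log2 change of the list in ifKO against KO was smaller, at -0.09. Without ifWT replicate 1, 7 were lower. With WT novelty in place of WT, 9 were lower and 0 higher, and the call of Ogn was lost (log2 change -0.83, adjusted p = 0.0594). Cldn5, Pecam1 and Cdh5 were chosen after their values were seen.

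Astrocyte markers also fell, in 6 of 17 regions with 0 rising and a median log2 change of -0.20; without ifWT replicate 1, 3 fell. Gjb6, a gap junction gene of astrocytes, had 7.4 and 8.62 CPM in ifWT libraries, against 14.7 and 14.2 CPM in WT libraries (log2 change -0.85 ± 0.13, adjusted p = 1.74e-05). Slc1a3, an astrocytic glutamate transporter gene, had 72.6 and 76.5 CPM in ifWT libraries, against 96.4 and 96.3 CPM in WT libraries (log2 change -0.37 ± 0.06, adjusted p = 5.73e-05). The summed level was 705 and 745 CPM in ifWT, against 833 and 823 CPM in WT. Of the 17 astrocyte regions, 35.3% were called, beside 18.0% over all genes. Gja1 fell as well (log2 change -0.32 ± 0.06, adjusted p = 0.000271), while Gfap was not called (log2 change -0.21 ± 0.10, adjusted p = 0.198); both were chosen after their values were seen. Of 23 oligodendrocyte lineage markers, 4 fell and 0 rose, so that 17.4% were called, beside 18.0% over all genes. Their median log2 change was -0.24, and it ran from -0.29 without WT replicate 1 to -0.07 without WT replicate 2. Their summed level was 471 and 461 CPM in ifWT, against 480 and 524 CPM in WT and 466 and 479 CPM in WT novelty. Mal, a gene of a myelin membrane protein, had 17.2 and 17.8 CPM in ifWT libraries, against 25.2 and 25.9 CPM in WT libraries (log2 change -0.55 ± 0.09, adjusted p = 0.0001), and Mobp had 12.1 and 12 CPM in ifWT libraries, against 15.3 and 21.2 CPM in WT libraries (log2 change -0.60 ± 0.15, adjusted p = 0.00495). The call of Mobp was lost in DESeq2, with WT novelty in place of WT and without WT replicate 2. In ifKO against KO, astrocyte markers had 0 higher and 11 lower and oligodendrocyte lineage markers 1 higher and 11 lower; against WT novelty, ifWT had 0 higher and 6 lower astrocyte markers and 1 higher and 2 lower oligodendrocyte lineage markers. Of 23 microglia markers, 1 fell and 0 rose, so that 4.35% were called, beside 18.0% over all genes. Of 12 choroid plexus and ependyma markers, 0 rose and 0 fell. Microglia markers summed to 181 and 183 CPM in ifWT, against 182 and 184 CPM in WT. Whether a difference in vascular or glial content had a part in the other results was not tested.

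Of 34 pyramidal and granule neuron genes, 2 rose and 10 fell (median log2 change -0.10), so that 35.3% were called, beside 18.0% over all genes. In ifKO against KO this list had 5 higher and 4 lower (median 0.04), and in ifWT against WT novelty 1 higher and 3 lower. Prox1, a dentate granule cell gene, had 96.6 and 76.6 CPM in ifWT libraries, against 97.1 and 111 CPM in WT libraries (log2 change -0.27 ± 0.08, adjusted p = 0.0232). That call was lost in DESeq2, with WT novelty in place of WT, with WT and WT novelty together, without WT replicate 2 and without ifWT replicate 2. Slc17a7, the vesicular glutamate transporter of hippocampal pyramidal cells, was not called, with 60.3 and 54.2 CPM in ifWT libraries, against 55.6 and 63.4 CPM in WT libraries. Both hippocampal markers, chosen after their values were seen, held the mark in every library. Only 2 pyramidal and granule neuron genes fell without WT replicate 2, and likewise without ifWT replicate 2. Of 24 interneuron markers, 2 rose and 0 fell (median log2 change 0.09), so that 8.33% were called, all higher, beside 8.93% called higher over all genes. In ifKO against KO the list had 4 higher and 1 lower, and in ifWT against WT novelty 0 higher and 0 lower. Dlx2, a transcription factor gene of interneurons whose promoter is printed above, had 16.8 and 16.6 CPM in ifWT libraries, against 12.8 and 12.7 CPM in WT libraries (log2 change 0.39 ± 0.11, adjusted p = 0.0152). Gad2, which encodes a GABA-synthesising enzyme, had 7.89 and 7.32 CPM in ifWT libraries, against 5.48 and 5.27 CPM in WT libraries (log2 change 0.50 ± 0.17, adjusted p = 0.0467). Neither was called when any 1 of the 4 libraries was left out. Interneuron markers summed to 437 and 436 CPM in ifWT, against 410 and 414 CPM in WT and 430 and 429 CPM in WT novelty. Their sums were 435 and 440 CPM in ifKO, against 422 and 435 CPM in KO.

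Among genes tied to strain or immunity, Trim12a had 16.8 and 16.8 CPM in ifWT libraries, against 12 and 10.1 CPM in WT libraries (log2 change 0.60 ± 0.12, adjusted p = 0.000642) and Glo1, which encodes the detoxifying enzyme glyoxalase, had 42.4 and 38.2 CPM in ifWT libraries, against 56.3 and 63.8 CPM in WT libraries (log2 change -0.58 ± 0.08, adjusted p = 4.17e-06); 2 strain-variable genes rose and 3 fell of 22, and in ifKO against KO 7 were higher and 2 lower. Gbp2, an interferon-induced GTPase gene with the CG-poor promoter printed above, had 10 and 12.9 CPM in ifWT libraries, against 19.2 and 18 CPM in WT libraries (log2 change -0.70 ± 0.12, adjusted p = 7.35e-05). Mx2, an interferon-induced antiviral gene, had 11.2 and 14.5 CPM in ifWT libraries, against 19.9 and 19 CPM in WT libraries (log2 change -0.59 ± 0.12, adjusted p = 0.000493); the interferon list had 2 higher and 2 lower of 37 (3 and 6 in ifKO against KO), with 0 higher without WT replicate 2 or without ifWT replicate 2. Of 20 major histocompatibility genes, 4 rose and 0 fell, among them Tap2, a peptide transporter gene, with 37.2 and 35.9 CPM in ifWT libraries, against 27.7 and 26.9 CPM in WT libraries (log2 change 0.42 ± 0.10, adjusted p = 0.00322); 0 rose without WT replicate 2 and 2 without ifWT replicate 2. In ifKO against KO, this list had 2 higher and 3 lower (median log2 change -0.01). In ifWT against WT, 20% of the histocompatibility list was called in either direction, 22.7% of the strain-variable list and 10.8% of the interferon list. Over all genes that share was 18.0%. H2-Q6, a class I gene, had 14.3 and 17.9 CPM in ifWT libraries, against 11.2 and 9.25 CPM in WT libraries (log2 change 0.65 ± 0.17, adjusted p = 0.00679); in ifKO against KO it was not called (log2 change 0.01 ± 0.17, adjusted p = 0.983), and its call was lost in DESeq2, without WT replicate 2 and without ifWT replicate 2. Reads of Trim12a, H2-Q6, Gbp2, the protocadherins and the Gm genes may be shared with near-identical copies, so their values are uncertain.

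Of 78 ribosomal protein genes, 23 fell and 0 rose (median -0.12), and leaving out any 1 of the 4 libraries left 7 to 12 lower; in ifKO against KO 2 were higher and 14 lower, and with WT novelty in place of WT 0 were higher and 10 lower. Rps3 had 61.6 and 66.8 CPM in ifWT libraries, against 82.8 and 83.1 CPM in WT libraries (log2 change -0.37 ± 0.06, adjusted p = 3.92e-05) and Rpl13a had 63.8 and 63.1 CPM in ifWT libraries, against 76.7 and 84.6 CPM in WT libraries (log2 change -0.35 ± 0.06, adjusted p = 0.000256). Heat shock and stress genes had 6 lower and 0 higher of 26 (3 lower without WT replicate 2), and Txnip, a gene for a redox regulator, had 45.3 and 53 CPM in ifWT libraries, against 73.7 and 68.8 CPM in WT libraries (log2 change -0.53 ± 0.07, adjusted p = 8.6e-07). Zinc finger genes of clusters had 5 higher and 14 lower of 62 (4 to 7 lower when any 1 of the 4 libraries was left out); over the 56 with a promoter there were 4 higher and 18 lower, and 5 higher and 2 lower with offsets fitted to promoter GC content. Synaptic transmission genes had 5 higher and 13 lower of 54 (3 lower without WT replicate 2 and 7 without ifWT replicate 2), and Syt1, a calcium sensor gene of vesicle release, had 83.8 and 81.7 CPM in ifWT libraries, against 110 and 112 CPM in WT libraries (log2 change -0.43 ± 0.07, adjusted p = 3.76e-05). In ifKO against KO, zinc finger genes had 9 higher and 13 lower, synaptic transmission genes 8 higher and 10 lower, and heat shock and stress genes 1 higher and 5 lower. In ifWT against WT, 29.5% of the ribosomal protein list and 30.6% of the zinc finger list were called. The synaptic transmission list had 33.3% called and the heat shock and stress list 23.1%, beside 18.0% over all genes. H3K4 methylation enzymes had 4 higher and 2 lower of 26, so that 23.1% were called, beside 18.0% over all genes; leaving out any 1 of the 4 libraries left 3 higher and 0 to 1 lower. Setd1a, an H3K4 methyltransferase gene, had 116 and 116 CPM in ifWT libraries, against 98.1 and 93.6 CPM in WT libraries (log2 change 0.27 ± 0.05, adjusted p = 0.000337) and Kmt2c, another, had 121 and 109 CPM in ifWT libraries, against 84.1 and 92.5 CPM in WT libraries (log2 change 0.38 ± 0.07, adjusted p = 0.00017). The call of Kmt2c was lost with promoter-GC offsets (log2 change 0.08, adjusted p = 0.227) and with WT novelty in place of WT (log2 change 0.17, adjusted p = 0.0938), and Kmt2c was not called in ifKO against KO (log2 change 0.08 ± 0.07, adjusted p = 0.479).

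The remaining lists had calls in both directions or few calls. Beside 18.0% over all genes, the share called was 25% of developmental genes, 15.2% of protocadherins and 24.4% of activity-induced genes. It was 41.7% of clock genes, 25% of germline genes and 17.2% of neighbouring brain region markers. In the 2 smallest lists it was 37.5% of sex-chromosome genes and 50% of blood markers. Of 32 developmental transcription factor genes, 4 rose and 4 fell. Zic1, a zinc finger transcription factor gene of the dorsal neural tube and cerebellum, had 13.2 and 14.2 CPM in ifWT libraries, against 25.2 and 25.6 CPM in WT libraries (log2 change -0.89 ± 0.12, adjusted p = 3.02e-06). Foxa1, a pioneer factor gene, had 5.53 and 4.87 CPM in ifWT libraries, against 2.52 and 2.32 CPM in WT libraries (log2 change 1.10 ± 0.21, adjusted p = 0.000325), so the ifWT and WT values lay apart in opposite directions at these genes. Of 46 clustered protocadherins, adhesion genes of neurons, 4 rose and 3 fell, and Pcdhb12 had 8.18 and 5.98 CPM in ifWT libraries, against 3.55 and 3.08 CPM in WT libraries (log2 change 1.09 ± 0.21, adjusted p = 0.000542). Of 45 activity-induced genes, 6 rose and 5 fell; Nptx2, a gene of a secreted synaptic pentraxin, had 29.2 and 25.9 CPM in ifWT libraries, against 35.5 and 34.6 CPM in WT libraries (log2 change -0.35 ± 0.09, adjusted p = 0.00624). Of 24 clock genes, 6 rose and 4 fell. Nr1d1, which encodes the clock repressor REV-ERB alpha, had 110 and 109 CPM in ifWT libraries, against 126 and 132 CPM in WT libraries (log2 change -0.23 ± 0.06, adjusted p = 0.00819). Of 20 germline genes, 3 rose and 2 fell, and Sycp3, a gene of the meiotic synaptonemal complex, was weak, with 0.539 and 0.625 CPM in ifWT libraries, against 1.26 and 1.47 CPM in WT libraries (log2 change -1.22 ± 0.35, adjusted p = 0.0147). Neighbouring brain region markers had 3 higher and 2 lower of 29, among them Lef1, a Wnt pathway transcription factor gene with 42.3 and 45.4 CPM in ifWT libraries, against 57.5 and 54.6 CPM in WT libraries (log2 change -0.35 ± 0.08, adjusted p = 0.00122). Blood markers had 1 higher and 0 lower of 2; that gene was Klf1, an erythroid transcription factor gene with 27.9 and 27.2 CPM in ifWT libraries, against 22.5 and 21 CPM in WT libraries (log2 change 0.34 ± 0.09, adjusted p = 0.0126). Sex-chromosome genes had 0 higher and 3 lower of 8, and the Y-linked genes Ddx3y and Eif2s3y had log2 changes of -0.27 ± 0.07 (adjusted p = 0.00743) and -0.31 ± 0.09 (adjusted p = 0.019). With promoter-GC offsets the same 8 regions had 1 higher and 0 lower, and the calls of Ddx3y and Eif2s3y were lost there and with WT novelty in place of WT. That last setting also lost the calls of Foxa1 (log2 change 0.47, adjusted p = 0.113), Nr1d1, Sycp3 and Lef1. These counts are small and several rested on 1 library: with 1 of the 4 libraries left out, activity-induced genes had 1 to 7 higher and 1 to 4 lower, clock genes 1 to 5 higher and 1 to 3 lower, developmental genes 1 to 3 higher and 3 to 4 lower, protocadherins 1 to 3 higher and 1 to 3 lower, germline genes 1 to 2 higher and 1 lower, sex-chromosome genes 1 to 2 lower, and blood markers 0 to 1 higher, with Klf1 not called without WT replicate 2 or without ifWT replicate 1.

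**Figure D3:**
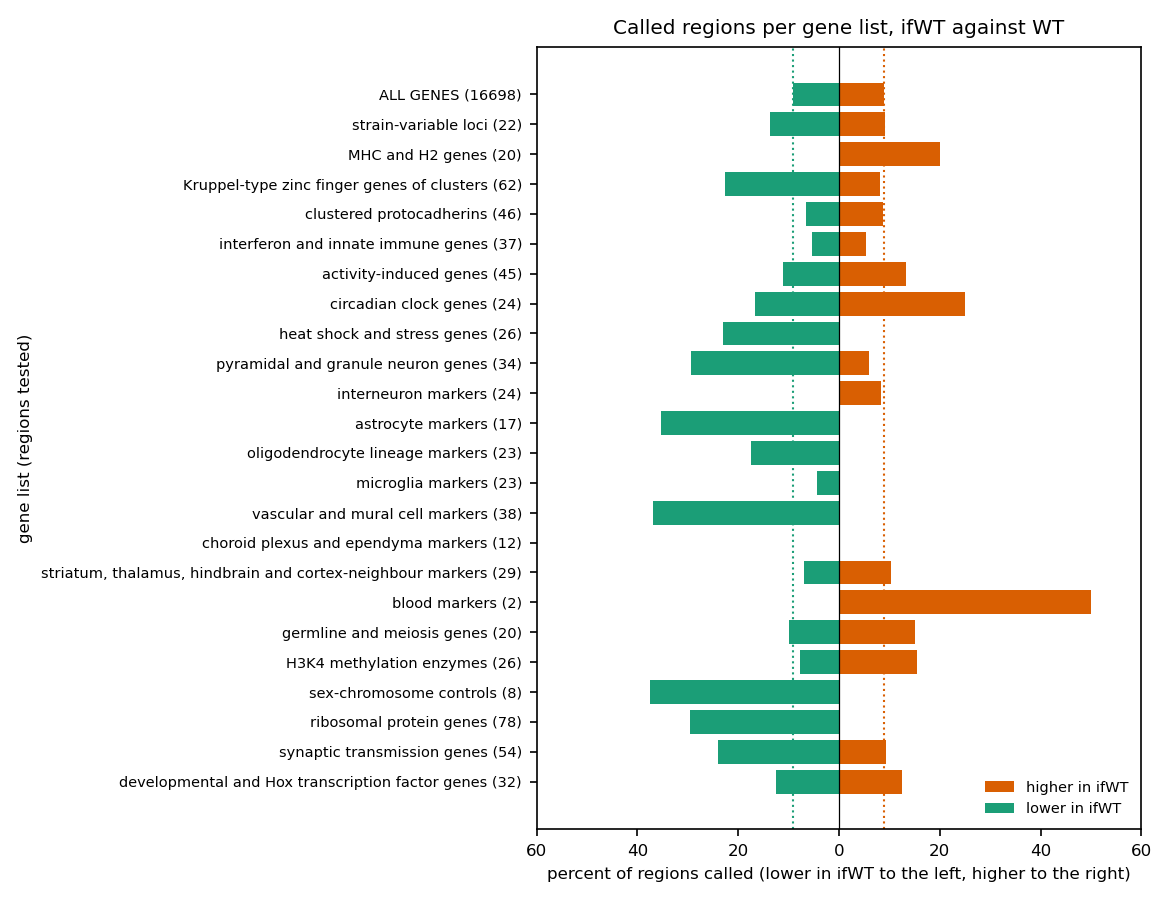
Percent of regions called lower in ifWT (left of 0) and higher in ifWT (right of 0) in each gene list, with the number of regions tested in parentheses; dotted lines mark all genes, 8.93% higher and 9.08% lower. Vascular, astrocyte, ribosomal protein and heat shock genes have bars to the left only.

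Base composition moved with the difference. Over 12680 regions that overlap a promoter, the log2 change of ifWT minus WT had a Spearman's rho of 0.32 with promoter GC content, against 0.27 for ifKO minus KO and -0.21 for WT minus WT novelty; all of these points share the libraries and regions. Where the promoter GC exceeded 70%, 24.5% of 2195 regions were higher and 3.01% lower, and at GC up to 45%, 4.75% of 568 were higher and 22.5% lower. Within the ifWT group the 2 libraries were unlike each other: at GC over 70% they deviated by 0.13 and 0.05 on the log2 scale from the 12-library mean, against -0.01 and 0.01 in WT. With offsets fitted to promoter GC, the GC-rich class had 14.0% higher and 14.1% lower, and 2865 regions were called in all, against 3357 over the same regions without the offsets. The offsets remove each library's trend with GC, so the balance within a GC class was set by the fit. The vascular markers were 8 lower of 19 in both of those fits. The part of base composition in the results was not tested.

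**Figure D4:**
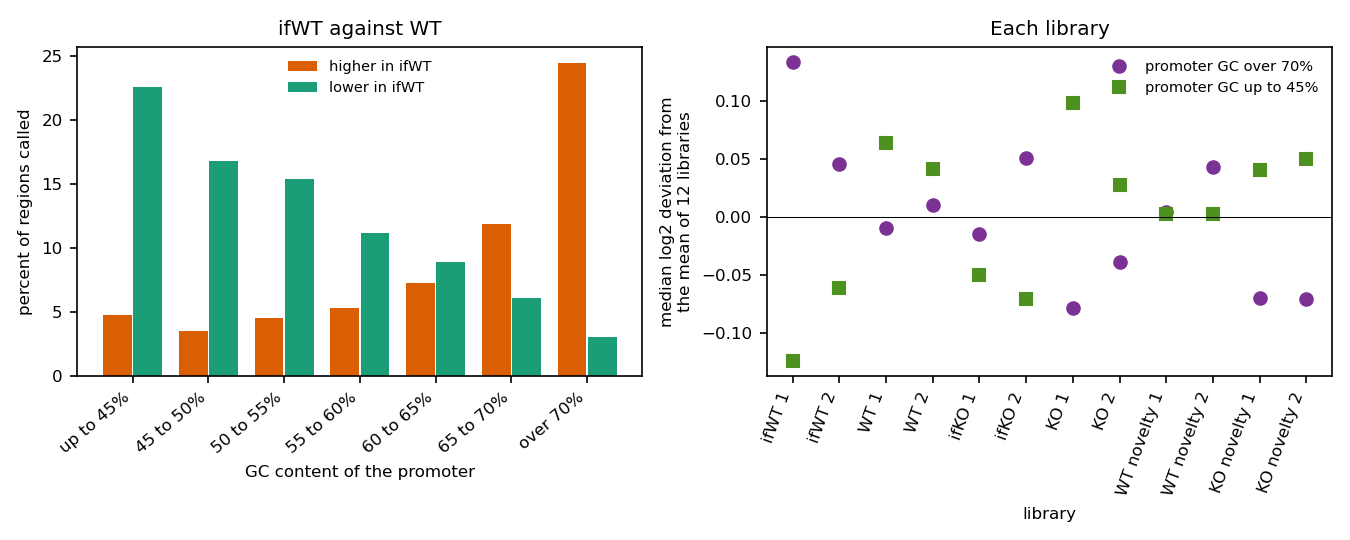
Left, percent of promoter-overlapping regions called higher and lower in ifWT by GC content of the promoter; the higher share reaches 24.5% over 70% GC and the lower share 22.5% up to 45% GC. Right, the median log2 deviation of each library from the mean of 12 libraries, in GC-rich and GC-poor promoters; ifWT 1 lies farthest from 0 in both.

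At gene ends 1843 were higher and 1727 lower of 19832 regions, inside genes 417 and 726 of 10343, and between genes 356 and 135 of 5780. The bins given here were chosen from 513 bins of 5 Mb for their high share of calls in 1 direction. The first 5 Mb of chromosome 14 held 13 lower of 17, and 15 to 20 Mb of chromosome 5 held 19 higher of 34. All genes assigned to those lower regions of chromosome 14 had Gm or Rik names. Those assigned to the higher regions of chromosome 5 were Gm genes, Speer4cos, Speer4f1 and Cacna2d1. Reads of Gm genes may be shared with near-identical copies, so the regions of these bins may not be independent. The start of chromosome 9, where the mouse assembly holds satellite repeats, held 19 higher regions with log2 changes of 1.29 to 1.38 (2.04 to 2.17 in ifKO against KO). These 19 regions took 0.808% and 1.12% of counts in ifWT, against 0.343% and 0.444% in WT. They took 1.49% and 0.918% in ifKO, against 0.301% and 0.304% in KO. The other bins with the highest shares held 6 higher of 13 in the first 5 Mb of chromosome Y and 21 lower of 48 at 5 to 10 Mb of chromosome 14. Without the start of chromosome 9, 5229 regions were called.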

How the data were processed

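Members, lists and tests were chosen with earlier results of these data known. The deposited H3K4me3 files give, per the file headers, raw read counts for each region. The submitters' processing notes name MACS2 2.1.0 and Bowtie2 2.2.9, then SAMtools 1.3.1, R 3.3 and DESeq2 1.10.0, and build mm10, which was made from C57BL/6J. How reads of 129 alleles mapped to it was not tested. No label states how regions were drawn up. Each file lists 36005 regions, of which 9 repeats were removed. Regions were annotated from RefSeq genes of GRCm38.p6 by gene ends within 2 kb, otherwise inside a gene, otherwise the nearest within 50 kb. All 12 H3K4me3 libraries were fitted in edgeR 4.0.16 (R 4.3.3) with 1 mean per group, TMM factors and filterByExpr, which left 35955 regions; limma 3.58.1 and DESeq2 1.42.0 served as alternatives. CPM uses TMM-scaled totals, and 3 counts correspond to 0.134 to 0.147 CPM in the 4 libraries. Intervals and floors cover counting error only, as reads carry no molecular identifiers. Named genes were the 12 largest rises and falls, the 5 smallest p each way and up to 2 members per list. All of those were called, at mean log2 CPM 1 or more and with no overlap of libraries. A fixed few were named whatever their values, and some others were added after their values were seen, without the rule on overlap. With 2 pools a group, a permutation test of 1 region cannot pass 0.05. Replicate numbers did not pair libraries (correlation of deviations -0.047). The script was tested on simulated data. Results for a few genes are not reported here.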

Additional observations from a re-analysis of the deposited data

Results flagged for a closer look

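6 named regions differed by unlike amounts in the 2 cohort comparisons, by edgeR's test of the difference (ifWT minus WT, minus ifKO minus KO); the test was made over all regions. No explanation was tested. Wbp11 had a difference of -1.86 ± 0.19, adjusted p = 6.47e-07, with log2 changes of -3.47 in ifWT against WT and -1.61 in ifKO against KO. Camk2a, which encodes a synaptic kinase, had -0.99 ± 0.09, adjusted p = 4.06e-08: its values were 140 and 124 CPM in ifWT libraries, against 150 and 166 CPM in WT libraries, and 272 and 263 CPM in ifKO libraries, against 170 and 154 CPM in KO libraries. Zfp951, a zinc finger gene, had 0.87 ± 0.13, adjusted p = 0.000201. It had 27.2 and 25.8 CPM in ifWT libraries, against 20.7 and 20.5 CPM in WT libraries. The ifKO libraries, at 24.7 and 24.8 CPM, were close to ifWT, whereas KO libraries had 36.1 and 34.1 CPM. En2, a homeobox gene of hindbrain, had 0.82 ± 0.14, adjusted p = 0.00161, with 18.3 and 20.2 CPM in ifKO libraries, against 22 and 25.1 CPM in KO libraries. En2 was also called higher in ifWT against WT, but that call was lost with WT novelty in place of WT. Ogn had -2.05 ± 0.44, adjusted p = 0.0147, and its KO libraries were low, at 1.56 and 1.69 CPM. Ccnb1ip1, a gene of meiosis, had 2.51 ± 0.60, adjusted p = 0.0379: it had 0.343 and 0.402 CPM in ifWT libraries, against 1.26 and 1.07 CPM in WT libraries, and 0.36 and 0.337 CPM in ifKO libraries, against 6.16 and 6.28 CPM in KO libraries.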

How the results depend on the processing

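The called count for ifWT against WT moved by less than 1.5 times under RLE factors, strength offsets, no filter, a mean log2 CPM of at least 1, DESeq2 (3976), limma-voom, a 4-library fit, an 8-library fit and the replicate block (5133), where the block numbers name pools only. Lower calls were 4141 with library totals. Leaving out 1 library gave 2606 to 4047 calls, 1304 to 2343 higher and 1291 to 1704 lower; the lone library is then assumed to vary like the other groups. Over promoters only there were 3357 calls (1722 higher, 1635 lower) and, with GC offsets, 2865 (1508 and 1357), both chosen after the data were seen. Requiring a log2 change of at least 1 left 753 (455 and 298). For ifKO against KO, library totals gave 1987 higher and 7075 lower, DESeq2 2679 lower, and promoters only 3856 (2005 and 1851), GC offsets 3519 (1756 and 1763) and the log2 threshold 1772 (640 and 1132). Leaving out 1 of its libraries gave 3994 to 5985 calls, 1706 to 2562 higher and 2288 to 3423 lower. Of 77 called named regions, 50 kept their call in every setting run; 18 lost it without WT replicate 2, 17 with novelty libraries in place of WT, 11 without each ifWT replicate and 8 without WT replicate 1. Uncalled log2 changes turned sign for Kdm5d (0.024 with WT novelty), Fos (0.012 with the stricter filter, 0.025 with GC offsets, -0.087 to 0.054 without 1 library), Npas4 (-0.11 to 0.26 without 1 library) and Slc17a7 (-0.15 to 0.037 without 1 library, 0.00046 with WT novelty). Depth limits regions near 3 counts, where the fitted log2 change depends on the prior count.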
